A study of Mus musculus with 39 samples.

Results

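Islets taken on day 15.5 of pregnancy were set against islets of non-pregnant female mice. The comparison was defined by the sample labels alone and held 8 of the 39 arrays of the series, 4 for day 15.5 and 4 for the non-pregnant group. All 8 came from wild type C57bl6/J mice, with no transgene, drug or diet named in the labels. The age of the mice and the number of mice behind each array were not stated. The arrays of a group were labelled as biological replicates. The p-values and SE rest on the spread between replicates, estimated jointly over the 31 C57bl6/J arrays of the series. RNA was extracted from whole pancreatic islets and hybridised to Affymetrix whole-transcript arrays. The deposited values are log2 levels, so a difference of 1 is a 2-fold change in signal. In whole islets, fewer cells of a type and less RNA per cell cannot be told apart.

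In pregnancy the placenta releases lactogens, which act together with prolactin from the pituitary on the prolactin receptor of beta-cells. The receptor signals through the kinase JAK2 and the transcription factor STAT5, whose targets include the SOCS family proteins that dampen the signal. In rodents the beta-cells answer by making serotonin, by dividing and by releasing more insulin at a given glucose level. Serotonin is made from tryptophan by tryptophan hydroxylase and aromatic amino acid decarboxylase, and it acts on the islet through several receptors. Day 15.5 lies in the later part of mouse gestation.

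The arrays resembled each other closely. Correlations over 19938 genes lay between 0.991 and 0.995 within the 2 groups and between 0.985 and 0.991 across them. The transcripts of islet hormones were near the top of the scale on every array. The SD of the levels over all genes, a measure of how far an array is spread out, was 1.72 to 1.82 on day 15.5 and 1.76 to 1.84 in the non-pregnant group. Replicate 2 of day 15.5 had the narrowest spread. Replicate 1 of the non-pregnant group stood apart in its hormone transcripts, as described with them. The deposited levels carry 1 decimal, so that replicates often share a value.

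At an adjusted p under 0.05 in limma, 1641 of 19938 genes differed between day 15.5 and the non-pregnant islets, which is 8.23% of those tested. Of these, 737 were higher on day 15.5 (3.7%) and 904 were lower (4.53%). The typical change was small, with a median size of 0.35 among the called genes and a median difference of 0.03 over all genes. The large changes were mostly rises. Of the 55 called genes that changed by at least 2-fold (0.276%), 46 were higher and 9 were lower on day 15.5. For 563 called genes all day 15.5 arrays lay above all non-pregnant arrays (2.82%), and for 654 all lay below (3.28%). The split between rises and falls depended on the scale. It was 936 higher and 326 lower after each array was centred on its median, 1034 and 786 when the SD of every array entered the model, and 670 and 583 without day 15.5 replicate 2.

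The largest rise belonged to the serotonin pathway. Tph1 encodes the tryptophan hydroxylase of tissues outside the brain, whose reaction limits how fast serotonin is made. Its log2 level was 4.0, 4.3, 4.6 and 4.9 on the non-pregnant arrays and 9.4, 9.6, 9.1 and 9.1 on the day 15.5 arrays. The groups lay more than 4 units apart. The difference of 4.85 ± 0.22 (SE, 4 arrays a group) was a 28.8-fold rise (95% interval 4.41 to 5.29 on the log2 scale, adjusted p = 7.58e-17). The non-pregnant level lies in or near the range of the 3988 dimmest genes, whose mean levels run from 2.21 to 4.69. No measure of background was used here, so the fold is that of the deposited values and not a bound. Tph2, the form of the enzyme known from neurons, read 5.1, 4.8, 5.1 and 4.9 without pregnancy and 7.2, 7.1, 7.2 and 7.3 on day 15.5. It rose by 2.23 ± 0.13 (SE), or 4.68-fold (adjusted p = 8.16e-14).

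The rest of the serotonin pathway moved far less. Of 16 genes of serotonin synthesis, storage and breakdown, 4 rose and none fell, with a median difference of 0.09. Over all genes 3.7% rose. Beside the hydroxylases the rises of the list were Slc18a1, which loads monoamines into vesicles (0.48 ± 0.10), and Ddc (0.30 ± 0.08, SE). Ddc is the decarboxylase that makes serotonin from its precursor. Slc18a1 read 7.1 to 7.2 without pregnancy and 7.5 to 7.7 on day 15.5. The call for Ddc ended without non-pregnant replicate 1 (adjusted p = 0.0652) or without day 15.5 replicate 1 (adjusted p = 0.0537). Maob, which breaks down monoamines, differed by −0.18 ± 0.08 and did not pass (adjusted p = 0.223). Of 14 serotonin receptors only Htr1d passed in the fit of all 31 arrays. It read 4.3 to 4.6 in the non-pregnant group and 4.8 to 5.0 on day 15.5, a rise of 0.43 ± 0.09 (adjusted p = 0.00305). Htr2b, a receptor linked to beta-cell expansion in pregnancy, differed by 0.30 ± 0.10 (adjusted p = 0.071) and passed without non-pregnant replicate 4 (adjusted p = 0.0429). Htr1d and Htr2b both lay among the dimmest 25% of genes, near the bottom of the scale. The filter on dim genes therefore left both out. Htr3a, the ion channel receptor, differed by −0.20 ± 0.17 (adjusted p = 0.538).

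**Figure D1:**
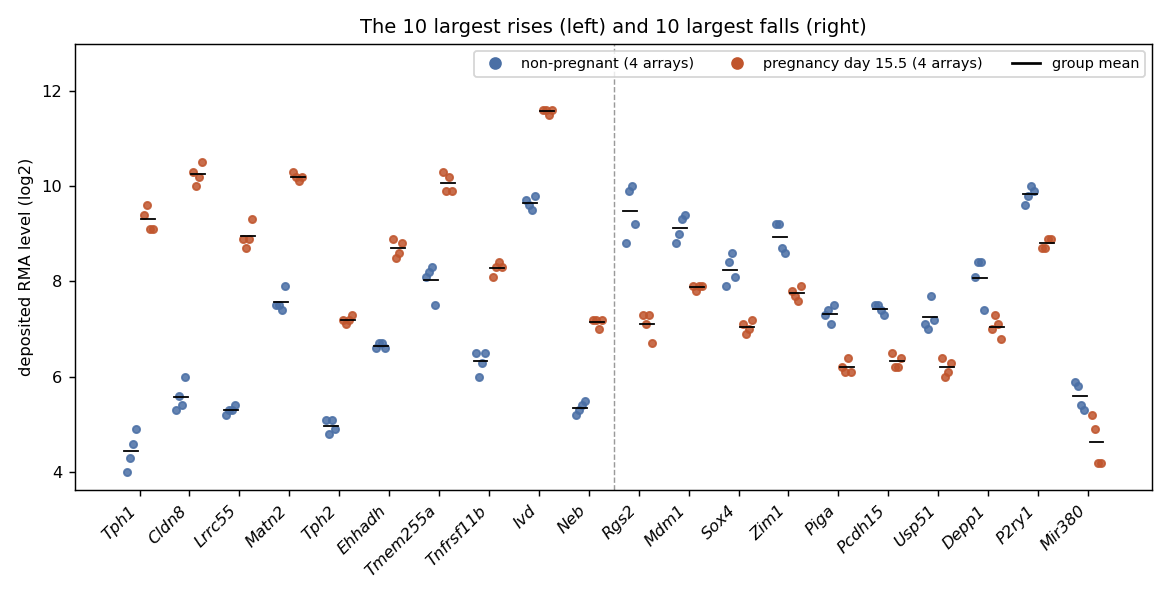
Deposited log2 level of the 10 largest rises, Tph1 to Neb, and the 10 largest falls, Rgs2 to Mir380, on each array, chosen among called genes whose groups did not overlap; Reg3b, tied with Neb, is not drawn. Points are arrays, blue for non-pregnant and orange for day 15.5, and black bars are group means; Tph1 reads 4.0 to 4.9 in blue and 9.1 to 9.6 in orange.

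After Tph1 the largest rises were those of Cldn8, Lrrc55 and Matn2. Cldn8, a claudin of tight junctions, read 5.3, 5.6, 5.4 and 6.0 without pregnancy and 10.3, 10.0, 10.2 and 10.5 on day 15.5. That is a difference of 4.68 ± 0.18 (SE), or 25.6-fold (adjusted p = 8.65e-19). It was the only member called among 19 genes of claudins and tight junctions, whose median difference was 0.00. Over all genes 8.23% were called. Lrrc55, an auxiliary subunit of the large-conductance calcium-activated potassium channel, read 5.2 to 5.4 without pregnancy and 8.7 to 9.3 on day 15.5. It rose by 3.65 ± 0.17 (adjusted p = 2.01e-16), and none of the other 7 genes measured for that channel and its accessory subunits was called. Matn2, a matrilin of the extracellular matrix, read 7.4 to 7.9 and then 10.1 to 10.3, a rise of 2.63 ± 0.12 (adjusted p = 2.01e-16). Tmem255a, a membrane protein, rose by 2.05 ± 0.13. Neb, known as the giant actin-binding protein of skeletal muscle, rose by 1.80 ± 0.11. Sftpd, a secreted collectin, rose by 1.58 ± 0.11, from 5.6 to 5.9 up to 7.2 to 7.4.

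A few targets of STAT5 rose, while the middle of their list did not. Of 17 feedback inhibitors and STAT5 targets, 4 rose and none fell, and the median difference was −0.05. Over all genes 3.7% rose and the median was 0.03. Tnfrsf11b, which encodes osteoprotegerin, a decoy receptor for the ligand RANKL, read 6.5, 6.0, 6.3 and 6.5 without pregnancy and 8.1, 8.3, 8.4 and 8.3 on day 15.5. It rose by 1.95 ± 0.16 (SE, adjusted p = 2.76e-10). Cish, a feedback inhibitor of cytokine receptors, read 8.7, 8.7, 8.5 and 7.9 and then 9.9, 10.0, 9.9 and 9.9, a rise of 1.48 ± 0.20 (adjusted p = 2.95e-06). Socs2, another member of that family, rose by 1.05 ± 0.11 (adjusted p = 4.35e-08), from 8.3 to 8.6 up to 9.4 to 9.6. Myc, a growth regulator, rose by 0.80 ± 0.22 (adjusted p = 0.0179). Its call ended without non-pregnant replicate 1 (adjusted p = 0.0578) or replicate 4 (adjusted p = 0.0853).

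The upstream part of the lactogen pathway held no called rise. Among 10 ligands, receptors and JAK-STAT5 genes 1 was called, and the median difference was −0.21. Over all genes 4.53% were called lower and the median was 0.03. Stat5b read 8.1 to 8.3 without pregnancy and 7.9 to 8.0 on day 15.5, a fall of 0.28 ± 0.07 on the log2 scale (adjusted p = 0.00743). It did not pass when arrays were centred on their medians (adjusted p = 0.0995) or when only the 8 arrays were fitted (adjusted p = 0.0636). Stat5a differed by −0.20 ± 0.07 (adjusted p = 0.0756), Jak2 by −0.25 ± 0.09 (adjusted p = 0.0764) and the growth hormone receptor Ghr by −0.23 ± 0.08 (adjusted p = 0.0786). The prolactin receptor was not analysed here.

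STAT5 binds the palindrome TTCNNNGAA, so the RefSeq promoters of the largest rises (GRCm38.p6) were searched for it. Each window ran from 250 bases before to 50 bases after an annotated start, and since the motif reads alike on both strands, 1 strand was scanned. It was present in 4 of the 12 largest rises with a promoter entry, namely Ivd, Reg3b, Prok1 and Cish, and in none of 17 of the largest falls. For comparison, 8.99% of 15614 tested genes with an entry held it, as did 11.3% of the 595 called higher and 7.04% of the 724 called lower. A form with a longer spacer was searched too, and was present in 1 of the 12 rises and 2 of the 17 falls. It was held by 7.3% of the tested genes, 5.71% of those called higher and 5.8% of those called lower. Tph1, Tph2 and Lrrc55 had no match to the palindrome in this window. Of the 4 rises with a match, Reg3b did not keep its call in every alternative run. Whether STAT5 binds at any match was not tested. Stretches of 100 bases from Cish, Ivd and Prok1 are shown because they hold the matches, which are in capitals. The positions are chr9:107296589-107296688 on the plus strand for Cish, chr2:118861844-118861943 on the plus strand for Ivd and chr3:107238703-107238802 on the minus strand for Prok1.
Cish: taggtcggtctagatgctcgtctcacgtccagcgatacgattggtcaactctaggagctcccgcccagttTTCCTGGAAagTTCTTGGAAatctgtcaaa
Ivd: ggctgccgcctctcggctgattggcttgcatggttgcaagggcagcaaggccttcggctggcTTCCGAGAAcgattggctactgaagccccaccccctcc
Prok1: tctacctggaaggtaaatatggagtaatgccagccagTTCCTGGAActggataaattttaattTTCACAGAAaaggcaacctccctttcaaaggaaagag
The Cish matches begin at the annotated start and 11 bases after it. The Ivd match begins 88 bases before the start, and those of Prok1 113 and 87 bases before 1 of its 2 annotated starts. The window of the other Prok1 start held no match. Prok1, a secreted prokineticin, read 6.1 to 6.4 without pregnancy and 7.8 to 7.9 on day 15.5, a rise of 1.55 ± 0.16 (adjusted p = 2.75e-08).

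Single enzymes of fuel breakdown rose strongly within lists whose medians changed little. Ivd, isovaleryl-CoA dehydrogenase of leucine breakdown, read 9.7, 9.6, 9.5 and 9.8 without pregnancy and 11.6, 11.6, 11.5 and 11.6 on day 15.5. It rose by 1.93 ± 0.10 (SE), or 3.80-fold (adjusted p = 9.48e-16). In branched-chain amino acid breakdown 4 of 19 genes rose and 1 fell around a median of 0.00, where 3.7% of all genes rose. The kinase Bckdk, which restrains the pathway, rose by 0.48 ± 0.08, and the count of rises was 2 without non-pregnant replicate 3 or day 15.5 replicate 3. Ehhadh, which works in the peroxisome on fatty acids, read 6.6 to 6.7 and then 8.5 to 8.9, a rise of 2.05 ± 0.10 (adjusted p = 8.05e-16). Of 21 genes of fatty-acid oxidation 2 rose and none fell, with a median of 0.03.

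Sterol genes split by enzyme. Dhcr7, which carries out the last step of cholesterol synthesis, read 7.3 to 7.6 without pregnancy and 8.5 to 8.7 on day 15.5, a rise of 1.15 ± 0.10 (adjusted p = 5.05e-10). Sqle, squalene epoxidase, rose by 0.45 ± 0.08 (adjusted p = 0.000127). Altogether 3 of 20 genes of cholesterol synthesis and uptake rose, beside 3.7% of all genes, and none fell, while their median was −0.10. Of 10 genes of sterol export and LXR targets 3 fell and none rose, where 4.53% of all genes fell. Abca1, the cholesterol exporter, read 9.3 to 9.6 and then 8.7 to 8.9, a fall of 0.70 ± 0.11 on the log2 scale (adjusted p = 2.61e-05). The fatty-acid desaturase Scd2 differed by −0.50 ± 0.10 (adjusted p = 0.00066).

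Many cell cycle genes were higher on day 15.5. All 34 measured genes of mitosis and G2/M had a positive difference, 17 of them called and none called lower, with a median of 0.36. Over all genes 3.7% were called higher and the median was 0.03. Top2a, a topoisomerase of dividing cells, read 5.5, 5.8, 5.7 and 5.4 without pregnancy and 6.6, 6.5, 6.5 and 6.6 on day 15.5, a rise of 0.95 ± 0.16 (SE, adjusted p = 0.000133). With the mean of its probe sets in place of the brightest, Top2a rose by 0.48 (adjusted p = 0.00632). Mki67, the gene of the proliferation marker Ki-67, rose by 0.68 ± 0.14 from 5.4 to 5.9 up to 6.2 to 6.4 (adjusted p = 0.00127). The spindle genes Prc1 and Plk1 rose by 0.80 ± 0.13 and 0.75 ± 0.09. Of 29 genes of DNA replication and S phase 11 rose and none fell, with a median of 0.25. Among these Rrm2, a subunit of ribonucleotide reductase, rose by 0.73 ± 0.11 (adjusted p = 4.56e-05). Pcna, the sliding clamp of the replication fork, read 7.6 to 7.9 and then 8.4 to 8.6, a rise of 0.68 ± 0.10 (adjusted p = 2.7e-05). The mitosis count was 11 without non-pregnant replicate 1 or without day 15.5 replicate 4. The replication count was 7 without replicate 4 of either group.

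Regulators of cell cycle entry changed little. Among 17 brakes, D cyclins and menin 1 was called higher and 1 lower, beside 3.7% and 4.53% of all genes. Cdkn2c, an inhibitor of cyclin-dependent kinases, read 6.1 to 6.3 and then 6.8 to 6.9, a rise of 0.68 ± 0.14 (adjusted p = 0.00123). Cdkn1b, another inhibitor, read 8.8 to 8.9 and then 8.3 to 8.7, a fall of 0.33 ± 0.08 on the log2 scale (adjusted p = 0.0101). That call ended without day 15.5 replicate 2 (adjusted p = 0.0679), with centred arrays (0.0916), with only the 8 arrays (0.0604) and with the mean of its probe sets (−0.24, adjusted p = 0.111). Ccnd1, Ccnd2 and Men1, the gene of menin, differed by 0.05 ± 0.10, −0.18 ± 0.07 and 0.13 ± 0.08, and none passed.

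Some genes that fold and export proteins rose, at shares to be read against the 3.7% of all genes called higher. Derl3, which moves misfolded proteins out of the endoplasmic reticulum, read 6.5 to 6.7 without pregnancy and 7.6 to 7.8 on day 15.5, a rise of 1.13 ± 0.09 (SE, adjusted p = 2.92e-10). Edem1 and Edem2, lectins that mark such proteins, rose by 0.75 ± 0.08 and 0.63 ± 0.08. In ER-associated degradation 5 of 15 genes rose and none fell, with a median of 0.20. Ern1, a sensor of unfolded proteins, read 9.2 to 9.3 and then 10.0 to 10.2, a rise of 0.83 ± 0.09 (adjusted p = 2.75e-08). It was the largest among 8 of 21 sensors, chaperones and folding enzymes that rose. The chaperone count was 5 without non-pregnant replicate 1 or day 15.5 replicate 3, and 4 when only the 8 arrays were fitted. At the gate into the secretory pathway and onward to the Golgi, 11 of 24 genes rose and 1 fell. Ssr4 of the translocon read 9.8 to 10.0 and then 10.4 to 10.5, a rise of 0.55 ± 0.07 (adjusted p = 2.08e-06). Sec11c of the signal peptidase rose by as much, 0.55 ± 0.10, while Sec62 differed by −0.23 ± 0.07. No fall was called in that list with centred arrays, with the array SD in the model or without day 15.5 replicate 2. In the PERK-ATF4 arm 2 of 16 genes rose and 1 fell, led by the stress protein Nupr1 at 1.13 ± 0.17 (adjusted p = 2.56e-05). The rises there numbered 5 with centred arrays, 4 after quantile normalization or with the array SD in the model. Phgdh, an enzyme of serine synthesis and the other rise, lost its call without any of non-pregnant replicates 1, 2 and 3 or day 15.5 replicates 1, 3 and 4.

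**Figure D2:**
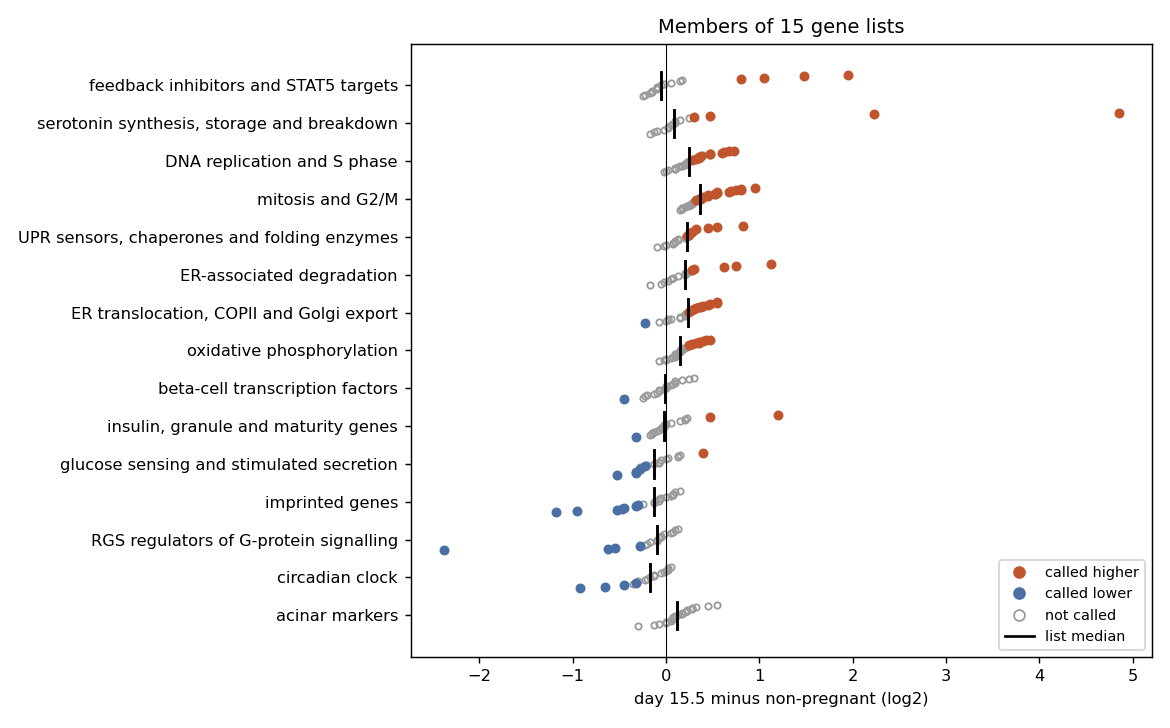
Difference between day 15.5 and non-pregnant islets (log2) of each measured member of 15 gene lists. Filled points passed the test, orange for higher and blue for lower, open points did not, and black bars are list medians; in the mitosis list all 34 points lie above 0, and no acinar marker is filled.

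Energy genes shifted by small amounts. Of 31 genes of oxidative phosphorylation 8 rose and none fell, with a median of 0.15, led by Ndufa4 (0.48 ± 0.07, adjusted p = 3.2e-05), which read 9.9 to 10.2 and then 10.4 to 10.6. The count was 2 without non-pregnant replicate 1 or day 15.5 replicate 3, and 4 or 5 without any of non-pregnant replicates 2, 3 and 4 and day 15.5 replicates 1 and 4. Of 17 genes of the tricarboxylic acid cycle 2 rose, Mdh1 and Suclg1, each by 0.38. Both counts are to be read against the 3.7% of all genes called higher.

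Genes that define the beta-cell differed little, and hormone transcripts showed no call. Ins2 read 11.9, 12.7, 12.7 and 12.7 on the non-pregnant arrays and 12.7 on every day 15.5 array. Iapp, the islet amyloid peptide released with insulin, read 13, 13.8, 13.9 and 13.9 and then 13.8 throughout. Gcg and Sst read 13 and 12.9 on non-pregnant replicate 1, against 14 and 13.7 on the other 3. Low values of these 4 hormones thus sat on 1 array, non-pregnant replicate 1, and the part of that array in other results is given by leaving it out. The part of signal saturation near the top of the scale was not tested. Ins1 was not analysed here. Among 18 beta-cell transcription factors 1 was called, Rfx6, with 9.8 to 10.1 without pregnancy and 9.4 to 9.6 on day 15.5 (−0.45 ± 0.08, adjusted p = 0.000388). Over all genes 4.53% were called lower and 3.7% higher. Pdx1 differed by 0.25 ± 0.09 (adjusted p = 0.0774), Mafa by 0.18 ± 0.12 (adjusted p = 0.443) and Nkx6-1 by −0.20 ± 0.08 (adjusted p = 0.108). Pdx1 passed without day 15.5 replicate 2 (adjusted p = 0.0229).

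Granule genes moved one by one. Chgb, chromogranin B of secretory granules, read 10.8, 11, 11 and 11.1 without pregnancy and 12.2, 12.1, 12.2 and 12.2 on day 15.5. It rose by 1.20 ± 0.08 (SE), or 2.30-fold (adjusted p = 1.99e-12). Pcsk1, a convertase that cuts proinsulin, rose by 0.48 ± 0.07 (adjusted p = 7.87e-06), from 11.2 to 11.4 up to 11.8 on every array. Of 19 genes of insulin, granules and maturity 2 rose and 1 fell, with a median of −0.03, where 3.7% of all genes rose. Of 19 genes of glucose sensing and stimulated secretion 1 rose and 5 fell, with a median of −0.13, where 4.53% of all genes fell. Gipr, the receptor of the gut hormone GIP, read 9.0 to 9.3 and then 8.6 to 8.8, a fall of 0.53 ± 0.12 on the log2 scale (adjusted p = 0.00484). Abcc8, a subunit of the ATP-sensitive potassium channel, differed by −0.28 ± 0.07 (adjusted p = 0.00667). Slc2a2, the glucose transporter of mouse beta-cells, differed by −0.23 ± 0.07 (adjusted p = 0.0358), and its call ended in 9 of 19 alternatives. The count of falls was 1 with arrays centred on their medians and 3 without replicate 2 of either group.

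**Figure D3:**
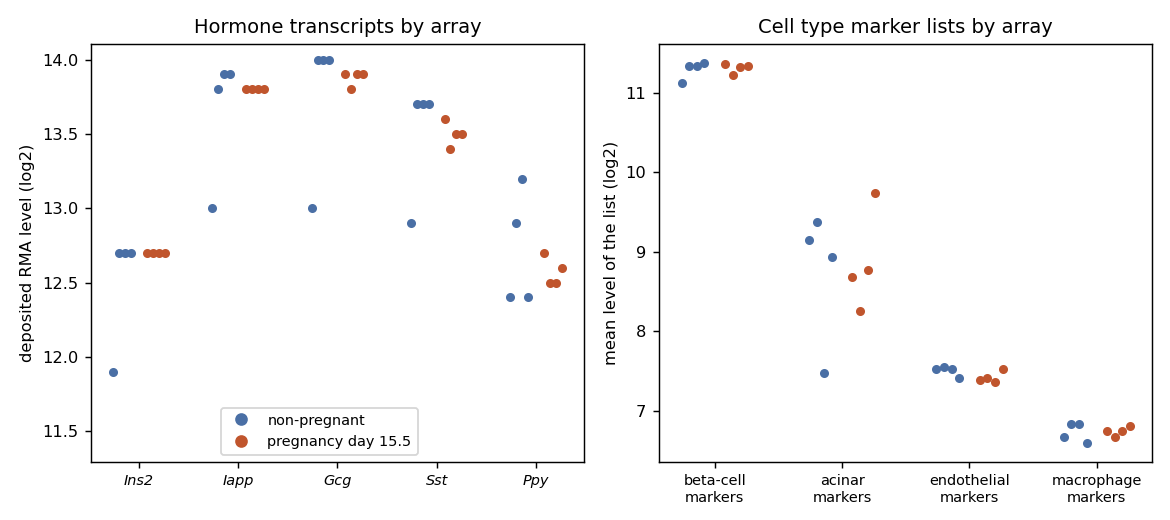
Left, deposited log2 level of 5 hormone transcripts on each array, and right, the mean log2 level of 4 marker lists on each array, blue for non-pregnant and orange for day 15.5. Non-pregnant replicate 1 is the low blue point for Ins2, Iapp, Gcg and Sst, and the acinar mean ranges from 7.48 to 9.38 in blue and from 8.26 to 9.75 in orange.

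Markers of other cell types of the pancreas gave calls in some lists, beside 3.7% of all genes called higher and 4.53% called lower. None of 22 acinar, 8 duct, 10 lymphocyte, 6 Schwann and neuronal or 2 red blood cell markers was called. With 8.23% of all genes called, lists this short can hold none. Acinar tissue varied between arrays of the same group. The mean level of its markers was 7.48 to 9.38 without pregnancy and 8.26 to 9.75 on day 15.5, so the groups overlapped. With the acinar mean as a covariate 1600 genes were called, of which 1573 were among the 1641. Of 6 alpha-cell markers Slc7a2 and Irx1 fell, by 0.58 ± 0.08 and 0.33 ± 0.09 on the log2 scale, while Gcg differed by 0.13 ± 0.12, and by −0.13 without non-pregnant replicate 1. Of 5 delta-cell markers 1 fell, Rbp4 (−0.35 ± 0.10), whose call ended in 8 of 19 alternatives, among them without non-pregnant replicate 2 or 3 or day 15.5 replicate 1 or 2. All 4 PP-cell markers had a negative difference, and Etv1 fell by 0.43 ± 0.09 on the log2 scale (adjusted p = 0.00175), with its call kept in all 19 alternatives. Of 15 endothelial and 16 stellate and fibroblast markers 1 each fell, Esam (−0.28 ± 0.08) and Postn (−0.48 ± 0.14). Of 17 macrophage markers C1qa, of the complement system, rose by 0.73 ± 0.11 (adjusted p = 5.05e-05) and Cd74 differed by −0.40 ± 0.13 (adjusted p = 0.0473). The macrophage list held 7 positive and 9 negative differences, with a median of −0.03. Positive and negative differences numbered 6 and 9 for endothelial, 2 and 2 for delta-cell, 1 and 5 for alpha-cell and 1 and 13 for stellate and fibroblast markers. The call for Irx1 ended without non-pregnant replicate 3 or day 15.5 replicate 2, that for Esam without non-pregnant replicate 2 or 3 or day 15.5 replicate 1, that for Postn without non-pregnant replicate 2 or 3 or day 15.5 replicate 1, 2 or 3, and that for Cd74 without non-pregnant replicate 1, 2 or 3 or day 15.5 replicate 2 or 3.

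Reg3b, a secreted lectin of the Reg family that acinar cells also make, was the least steady of the large rises. It read 4.5, 3.9, 4.1 and 4.2 without pregnancy and 5.5, 5.7, 5.5 and 7.2 on day 15.5 (1.80 ± 0.52, adjusted p = 0.0271). The value of 7.2 came from replicate 4, the array with the highest acinar mean of the 8, 9.75. Without that array the difference was 1.39 (adjusted p = 0.128), and the call also ended without non-pregnant replicate 2 (adjusted p = 0.0767) or 3 (adjusted p = 0.0604). All 7 measured genes of the family had a positive difference, with a median of 0.83. Only Reg3b was called in the fit of 31 arrays, where 3.7% of all genes were called higher. Reg2 differed by 2.30 (adjusted p = 0.0679) and passed in 4 of 19 alternatives, among them the acinar covariate (adjusted p = 0.0171). Reg3a differed by 1.28 (adjusted p = 0.0555) and passed in 5 of 18, with an adjusted p of 0.047 under that covariate. With the acinar mean of each array in the model the difference of Reg3b was 1.73 (adjusted p = 0.0167).

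The largest fall was that of Rgs2. Rgs2, which speeds the shutdown of G-protein signals, read 8.8, 9.9, 10.0 and 9.2 without pregnancy and 7.3, 7.1, 7.3 and 6.7 on day 15.5. It fell by 2.38 ± 0.27 on the log2 scale (SE, adjusted p = 1.42e-07), or 5.19-fold. Of 17 RGS genes 4 fell and none rose, against 4.53% lower over all genes, with Rgs11 at −0.63 ± 0.12, Rgs16 at −0.55 ± 0.11 and Rgs9 at −0.28 ± 0.07. Their median was −0.10, and Rgs9 did not pass with arrays centred on their medians (adjusted p = 0.0961). Mdm1, a microtubule-binding protein of centrioles, read 8.8 to 9.4 and then 7.8 to 7.9, a difference of −1.25 ± 0.14 (adjusted p = 9.27e-08). Sox4, a transcription factor of islet development, read 7.9 to 8.6 and then 6.9 to 7.2, a difference of −1.20 ± 0.13 (adjusted p = 6.53e-08). Piga, an enzyme of GPI anchor synthesis, and the cadherin Pcdh15 differed by −1.13 ± 0.11 and −1.10 ± 0.09, and Pcdh15 by −0.58 with the mean of its probe sets. P2ry1, a receptor for ADP, differed by −1.03 ± 0.16 and the cochaperone Hsph1 by −0.88 ± 0.15. Errfi1, an inhibitor of the EGF receptor, differed by −0.95 ± 0.16, and the receptor gene Egfr by −0.40 ± 0.10.

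Some clock genes were lower on day 15.5. Of 17 genes 4 fell and none rose, with a median of −0.18, where 4.53% of all genes fell. Cry2, a repressor of the clock, read 9.3, 9.6, 9.7 and 9.5 without pregnancy and 8.7, 8.5, 8.7 and 8.5 on day 15.5, a fall of 0.93 ± 0.12 on the log2 scale (SE, adjusted p = 2.82e-06). Per1, another repressor, fell by 0.65 ± 0.10 on that scale (adjusted p = 5.6e-05). The count was 2 without non-pregnant replicate 1 or 2, with arrays centred on their medians, with the array SD in the model and with all 39 arrays in 1 model. The hour at which islets were taken was not stated in the labels, and its part in these values was not tested.

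Imprinted genes, which are expressed from the copy of 1 parent, gave falls too. Of 19 measured 7 fell and none rose, with a median of −0.13, where 4.53% of all genes fell, and the count was 4 with arrays centred on their medians. Zim1, a zinc finger gene, read 9.2, 9.2, 8.7 and 8.6 without pregnancy and 7.8, 7.7, 7.6 and 7.9 on day 15.5, a difference of −1.18 ± 0.12 (adjusted p = 1.72e-08). Nnat, a small membrane protein of the endoplasmic reticulum, read 8.4, 8.7, 8.5 and 7.5 and then 7.3, 7.2, 7.4 and 7.4 (−0.95 ± 0.16, adjusted p = 0.000134). Peg3 differed by −0.45 ± 0.07 (adjusted p = 7.89e-05). Meg3, a maternally expressed non-coding RNA, read 11.3, 11.6, 11.3 and 11.2 and then 10.9, 10.8, 10.8 and 10.8 (−0.53 ± 0.13, adjusted p = 0.00800).

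Meg3 lies in the Dlk1-Dio3 domain, whose maternal copy gives rise to Meg3, Rian and a large cluster of microRNAs. The domain was taken up after the values had been seen, so its counts are a description. It spans chr12:109452485-110281097 in GRCm38.p6, from Dlk1 to Dio3, and 47 of its genes were measured. Of these 14 were called lower and none higher, 42 had a negative difference, and the median was −0.33. Over all genes 4.53% were called lower and the median was 0.03. The 12 called microRNA genes are a part of 40 measured there. Of the 260 microRNA genes measured outside the domain 4 were called lower and 1 higher, with a median of 0.05. The array probes read the microRNA gene or its precursor, not the mature microRNA. Mature sequences from RefSeq (GRCm38.p6) are shown for the 5 called microRNA genes of the domain whose groups did not overlap, with the seed, bases 2 to 8, in capitals.
mmu-miR-380-3p: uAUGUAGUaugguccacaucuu
mmu-miR-380-5p: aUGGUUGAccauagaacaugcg
mmu-miR-377-3p: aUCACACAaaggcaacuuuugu
mmu-miR-377-5p: aGAGGUUGcccuuggugaauuc
mmu-miR-541-3p: uGGCGAACacagaauccauacu
mmu-miR-541-5p: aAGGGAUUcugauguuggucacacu
mmu-miR-300-3p: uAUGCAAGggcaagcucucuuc
mmu-miR-300-5p: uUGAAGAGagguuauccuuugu
mmu-miR-329-3p: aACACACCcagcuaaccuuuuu
mmu-miR-329-5p: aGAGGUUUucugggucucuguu
Over all 17 called microRNA genes, 16 had an entry, and their 27 mature sequences held 27 different seeds. Of the microRNA genes called lower, 12 lay in the domain and 4 outside it. For some genes, such as Mir487b, Mir485 and Mir539, only 1 arm was listed. Whether sequences without an entry share a seed with the others was not examined.

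Within the domain the called falls were Meg3, Rian and 12 genes of the distal microRNA group. Rian differed by −0.48 ± 0.14 (adjusted p = 0.0312), and its call ended in 7 of 19 alternatives: with all 39 arrays, with centred arrays, without non-pregnant replicate 1 (adjusted p = 0.103), 2 or 3, and without day 15.5 replicate 3 or 4 (adjusted p = 0.108). The 30 microRNA genes between 168.1 and 202.4 kb from the start of Meg3 all had a negative difference, 12 of them called, with a median of −0.38. The 10 between 31 and 77.3 kb had a median of −0.09 and no call. Mir380 read 5.9, 5.8, 5.4 and 5.3 without pregnancy and 5.2, 4.9, 4.2 and 4.2 on day 15.5 (−0.98 ± 0.23, adjusted p = 0.00539). Mir377 read 7.3, 7.2, 6.8 and 6.7 and then 6.4, 6.1, 6.2 and 5.9 (−0.85 ± 0.20, adjusted p = 0.00461). Mir541 read 5.9, 5.5, 5.6 and 4.9 and then 4.7, 4.7, 4.5 and 4.6 (−0.85 ± 0.15, adjusted p = 0.000288). In all 3 the lowest non-pregnant array stayed above the highest day 15.5 array by 0.1 to 0.3. Dlk1, Rtl1 and Dio3, which are expressed from the paternal copy, differed by −0.05 ± 0.10, 0.08 ± 0.10 and 0.00 ± 0.12. The count of called microRNA genes in the domain was 6 without non-pregnant replicate 1, 7 without non-pregnant replicate 2 and 19 without non-pregnant replicate 4. After median centring of the arrays it was 8.

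**Figure D4:**
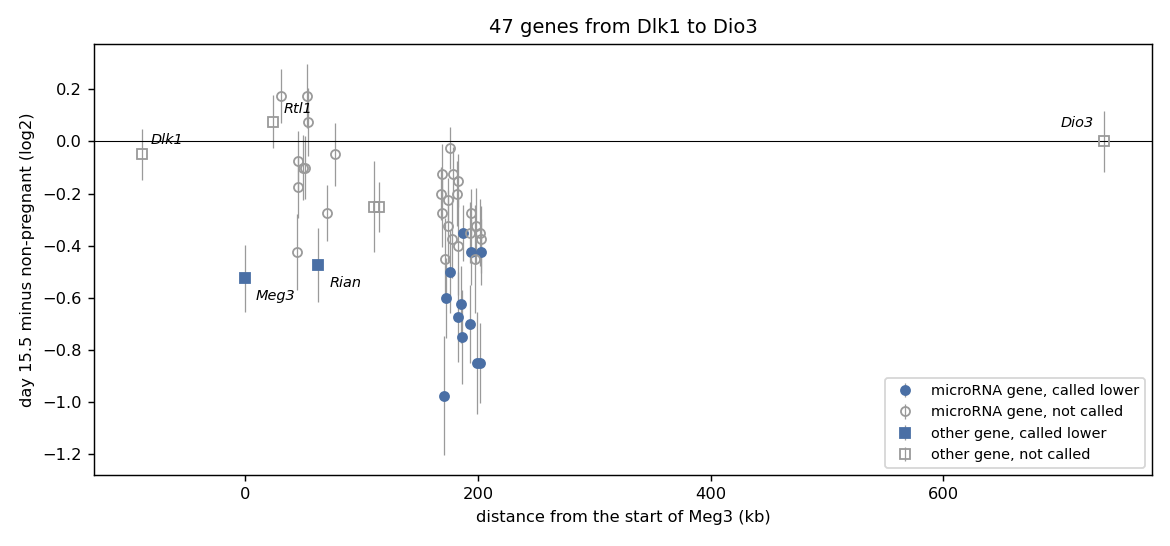
Difference between day 15.5 and non-pregnant islets (log2, bars are SE) of 47 genes from Dlk1 to Dio3 against their distance from the start of Meg3 in kb. Filled symbols were called lower, circles are microRNA genes and squares other genes; all 12 filled circles lie between 168.1 and 202.4 kb.

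The mean level of the 12 called microRNA genes varied over the other groups of the study as well. It was 5.83 to 6.54 on the non-pregnant arrays and 5.44 to 5.82 on those of day 15.5. Group means were 6.72 on day 3.5, 6.14 on day 6.5, 6.25 on day 9.5, 5.99 on day 12.5, 5.83 on day 18.5 and 5.53 at 10 days post partum. The control littermates of the transgenic mice averaged 5.76 (5.68 to 5.88), which overlaps the day 15.5 arrays. Day 15.5 and the post partum group thus had the lowest means of the C57bl6/J groups. The 12 genes were chosen for their day 15.5 values, so that its place in this order is a description.

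Large families at the dim and the middle part of the scale gave uneven counts. Of 370 zinc finger genes 32 fell and 3 rose, with a median of −0.10, where 4.53% of all genes fell. The count of falls was 8 after median centring of the arrays. It was 17 without non-pregnant replicate 1 or day 15.5 replicate 2, 20 without non-pregnant replicate 2 or 3, and 21 without day 15.5 replicate 3. Of 1027 olfactory receptors 22 rose and none fell, with a median of 0.08, a smaller share of rises than the 3.7% of all genes. That count was 9 after quantile normalization and 39 after median centring of the arrays. It ran from 9, without non-pregnant replicate 1 or 3, to 34, without non-pregnant replicate 4. In the fifth of genes with the lowest mean level 61 were called higher and 8 lower, and after quantile normalization 21 and 27. Of 70 genes whose symbols start as those of cytosolic ribosomal proteins do, 12 rose and none fell, with a median of 0.15. That count was 4 without non-pregnant replicate 1 and 7 without day 15.5 replicate 3 or 4. Their direction was the same in quantile normalization (13 higher, 0 lower), with arrays centred (13 and 0) and with the SD covariate (18 and 0).

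Day 15.5 was then set against the days sampled before and after it. These comparisons share the day 15.5 arrays, so their values are given side by side and not correlated. Against day 12.5 no gene was called (0.0% of 19938). The smallest adjusted p was 0.156, and 2347 genes had an unadjusted p under 0.05 in limma. For Tph1, Cldn8, Matn2 and Lrrc55, intervals of the difference between the days were narrow beside the rise over non-pregnant islets. Tph1 differed by −0.13 between day 15.5 and day 12.5 (95% interval −0.57 to 0.32), Cldn8 by 0.25 (−0.11 to 0.61) and Matn2 by 0.08 (−0.18 to 0.33). Lrrc55 differed by 0.53 (0.17 to 0.88, adjusted p = 0.299). That was not so for all leading genes. Reg3b differed by 2.00 between these days (0.93 to 3.07, adjusted p = 0.192). Mir380 differed by −0.73 (−1.19 to −0.26, adjusted p = 0.293) and Mir377 by −0.58 (−0.97 to −0.18, adjusted p = 0.302). Top2a differed by −0.35 (−0.68 to −0.02, adjusted p = 0.399) and Mki67 by −0.25 (−0.53 to 0.03, adjusted p = 0.469). The mitosis list had a median of −0.15 between these days.

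Against day 18.5, 2053 genes were called (10.3%), 840 higher (4.21%) and 1213 lower (6.08%) on day 15.5. This count changed with single arrays and with the scaling. The SD over genes was 1.85 to 1.91 on the day 18.5 arrays, above all of day 15.5, so that spread and day cannot be told apart. With that SD as a covariate no gene was called, and 205 were after quantile normalization. Without day 15.5 replicate 2 the count was 68, and without day 18.5 replicate 4 it was 88. Fbxw24, an F-box gene, had the largest called difference at −1.10 ± 0.18 (SE, adjusted p = 0.00519). It averaged 3.68 without pregnancy, 5.03 on day 15.5 and 6.13 on day 18.5. Lrrc55 differed by −0.63 (95% interval −0.98 to −0.27, adjusted p = 0.0298), and Neb by −0.43 (adjusted p = 0.0252). Tph1 differed by 0.40 (−0.04 to 0.84, adjusted p = 0.191), Cldn8 by −0.33 (−0.69 to 0.04, adjusted p = 0.191) and Rgs2 by −0.33 (adjusted p = 0.385). Of the 1641 genes that differed from non-pregnant islets, 342 also passed between day 15.5 and day 18.5.

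The leading genes reached day 15.5 by different courses. Tph1 averaged 4.30 on day 3.5, 5.23 on day 6.5, 8.58 on day 9.5, 9.43 on day 12.5 and 9.30 ± 0.24 (SD, n = 4) on day 15.5, and then 8.90 on day 18.5 and 7.90 at 10 days post partum. Lrrc55 averaged 7.40 on day 9.5, 8.43 on day 12.5, 8.95 ± 0.25 (SD, n = 4) on day 15.5, 9.58 on day 18.5 and 9.65 at 10 days post partum. Chgb was level from day 9.5 on, at 12.18 on days 9.5, 12.5 and 15.5. Mki67 and Top2a had their highest means on day 9.5, 7.10 and 7.73, and were at 6.33 and 6.55 on day 15.5. Rgs2 and Sox4 had their lowest means of the 8 groups on day 15.5, 7.10 and 7.05. The next lowest were 7.43 for Rgs2, on days 12.5 and 18.5, and 7.20 for Sox4, on day 12.5. Neither gene was called between day 15.5 and day 12.5, nor Rgs2 between day 15.5 and day 18.5.

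**Figure D5:**
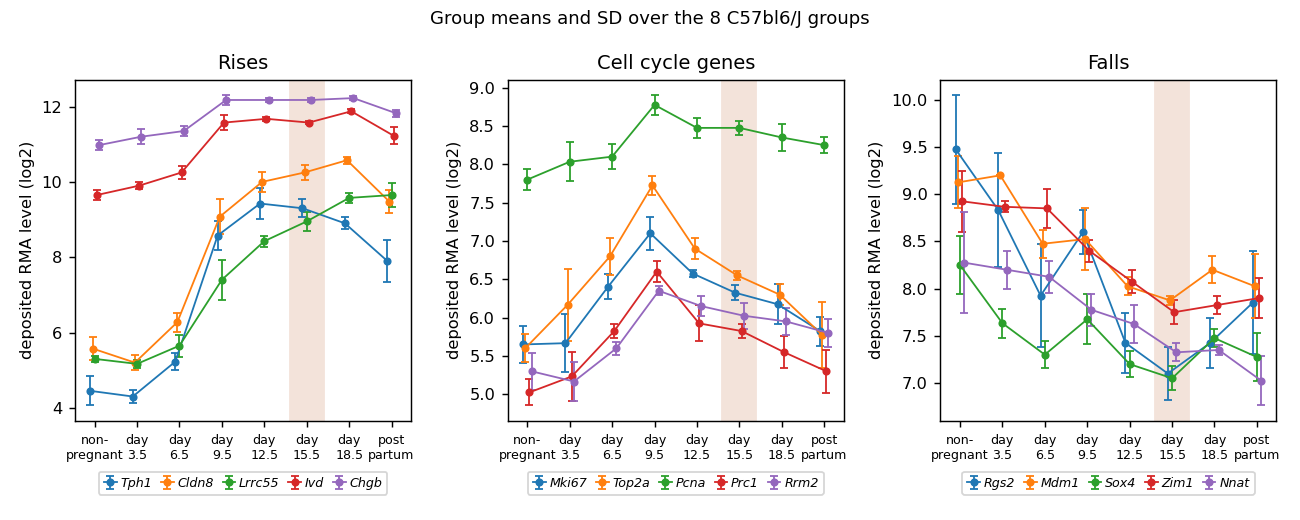
Group means and SD of the deposited log2 levels of 5 rises, 5 cell cycle genes and 5 falls over the 8 C57bl6/J groups, with day 15.5 shaded; each group holds 4 arrays, and day 3.5 holds 3. Tph1 is at 4.45 without pregnancy and 9.30 on day 15.5, and Top2a is highest on day 9.5, at 7.73.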

How the data were processed

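Each array's values are log2 levels per probe set, made by the authors with RMA in Affymetrix Expression Console, per the submitters' processing notes, and deposited to 1 decimal (range 1.7 to 14.5). RMA scales arrays to each other before deposit, so broad shifts in signal may be removed. Of 35556 probe sets, 21789 carried 1 gene symbol, 1621 several and 12146 none. The brightest probe set stood for each of 999 genes with several, giving 19938 genes. The 31 C57bl6/J arrays were fitted as 8 group means with limma 3.58.1 in R 4.3.3 (lmFit, eBayes). Its two-sided p-values were adjusted by Benjamini-Hochberg across the 19938 genes. A gene was called at an adjusted p under 0.05. The script was tested on simulated data. The number of arrays limits the precision.

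The comparison, the 55 gene lists and the genes to name were chosen with earlier results of these data known. Named were the 20 largest rises and falls among called genes whose groups did not overlap, up to 4 called and 2 uncalled members of each list, a fixed set that includes Tph1, Pdx1 and Cdkn1b, and the largest differences between days. Sec62, Abcc8, Peg3, Dlk1, Rtl1 and Dio3 were named after their values were seen. Prlr, Ins1 and Cdkn1a were not analysed here. Alternatives were other scalings (quantile, centring, the array SD or the acinar mean as a covariate), other sets of arrays or probe sets, other variance settings, a filter on the dimmest 25% of genes, a replicate block and leaving out each array. Promoter and microRNA sequences came from RefSeq tables of GRCm38.p6.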

Additional observations from a re-analysis of the deposited data

Results flagged for a closer look

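In 130 groups of 4 arrays over 65 genes, 21 held 1 array far from the other 3 by Dixon's test. The chance rate of that test, about 1 in 20, holds for values that are not rounded. At 1 decimal, 3 tied arrays and 1 that differs by a single step also meet it. The count can therefore not be set against that rate. Non-pregnant replicate 1 was low for Ins2 (11.9), Iapp (13), Gcg (13), Sst (12.9) and Slc2a2 (11.8). Day 15.5 replicate 4 was high for Reg3b (7.2), Prok1 (7.9) and Ccnd2 (12). Day 15.5 replicate 2 was low for Sftpd (7.2), Mdm1 (7.8), Socs2 (9.4), Htr2b (4.6) and Gcg (13.8), and high for Cish (10.0). Day 15.5 replicate 3 was low for Ivd (11.5) and Neb (7.0), and replicate 1 was high for Slc2a2 (11.8). In the non-pregnant group replicate 4 stood apart for Car8 (8.0) and Cdkn1b (8.8), replicate 2 for Fmo1 (6.1) and replicate 3 for Nkx6-1 (9.8). Apart from Ins2, Iapp, Gcg and Sst on non-pregnant replicate 1, and Reg3b, these arrays differed from the rest by 1 or 2 steps of the deposited decimal.

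Between day 15.5 and day 18.5, limma called lower on day 15.5 Fbxw24 (−1.10, adjusted p = 0.00519), Lrrc55 (−0.625, 0.0298), Usp51 (−0.525, 0.0398), Htr3a (−0.50, 0.0497), Hsph1 (−0.475, 0.0394), Neb (−0.425, 0.0252), Sox4 (−0.425, 0.0394), Cdkn1b (−0.375, 0.0151), Ivd (−0.30, 0.0474) and Ccnd1 (−0.30, 0.0461). Htr2b (0.35, 0.0351) and Htr1d (0.30, 0.0414) were called higher. None of these was called with the array SD as a covariate, where no gene was.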

How the results depend on the processing

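Against non-pregnant islets, the count of 1641 called genes fell to 1015 when only the 8 arrays were fitted, of which 971 were among the 1641, and lay between 1131 and 1865 when each array was left out. Centring arrays on their medians gave 1262 genes, 936 higher and 326 lower. Of the 40 largest rises and falls, 39 kept their call in every alternative run, and Reg3b did not. Of all 151 named and called genes, 102 did. Against day 12.5 the count was 0 in limma, 1 with centred arrays, and 0 to 6 when each array was left out. Against day 18.5 it was 2053, and it was 0 with the array SD as a covariate (1469 genes had an unadjusted p under 0.05), 205 after quantile normalization, 803 with centred arrays, 1078 with only both groups and 3549 with array weights. It ran from 68 to 2703 when each array was left out. The causes were not tested. Values near the top or bottom of the scale and steps of 1 decimal limit small differences.

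Replicate numbers did not pair the arrays: deviations of same-numbered arrays from their group means, non-pregnant and day 15.5, correlated at 0.19, −0.23, 0.01 and −0.18. With the replicate block the counts were 1664, 0 and 2085 against non-pregnant, day 12.5 and day 18.5 islets.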

Other observations

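Some gene groups outside the lists described above held single members that were called. Their counts are to be read beside 3.7% of all genes called higher and 4.53% called lower. Acvr1c, a receptor of the TGF-beta family, rose by 1.08 ± 0.12 on the log2 scale (SE, limma adjusted p = 6.53e-08), and Esr1, the estrogen receptor alpha, rose by 0.58 (adjusted p = 4.74e-05). Of 16 hormone and growth factor receptors measured 2 rose and 1 fell, Egfr, and the count of falls ran from 0 to 5 over the alternatives. It was up to 4 with 1 array left out, and without non-pregnant replicate 4 Nr3c2 (adjusted p = 0.0236) and Met (adjusted p = 0.0205) passed too. Egfr did not pass with centred arrays (adjusted p = 0.0515). Of 23 immediate-early genes 2 rose, led by Jun at 0.60 (adjusted p = 6.35e-05), and 1 fell, Dusp1 at −0.55 (adjusted p = 0.00236). Krt18, a keratin of simple epithelia, was the only one called of 6 and rose by 0.53. Of 17 amino acid transporters 4 fell and 1 rose, with Slc7a2 at −0.58, where 4.53% of all genes fell. That count of falls was 2 without any of non-pregnant replicates 1, 2 and 3 or day 15.5 replicates 2, 3 and 4. None of 25 proteasome subunits and none of 16 genes kept low in beta-cells was called in limma; with the array SD as a covariate 7 proteasome subunits were.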
